A study of Homo sapiens with 11 samples.

Results

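MIR elements (mammalian-wide interspersed repeats) are short repeats scattered through the human genome, and their RNA was examined here in material bound by J2, an antibody that recognises double-stranded RNA. The members were all rows of the deposited repeat tables whose name starts with the class and family label SINE/MIR: 611412 of 5622516 repeat elements, or 10.9%. The rule reads names only and no measured value. The cells were HCT116, an established human colorectal cancer line, and all groups share that background. The 3 J2 libraries came from cells with an siRNA against luciferase, the control (siLuc), and the solvent DMSO (siLuc DMSO), from siLuc cells with the DNA methylation inhibitor decitabine (siLuc DAC), and from cells with an siRNA against Staufen1 and decitabine (siStau1 DAC). The labels give a decitabine dose of 500 nM over 5 days. Staufen1 is a protein that binds double-stranded RNA. A J2 library of siStau1 cells without decitabine was not analysed here, so siStau1 DAC differs from siLuc DMSO in siRNA and drug together. The labels of the 3 libraries name J2, while a protocol text shared by all samples names a Staufen1 antibody, and which antibody was used cannot be told from them. The series also holds 8 total RNA libraries, whose deposited table lists genes and no repeat elements and was not used here.

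MIR elements are SINEs, short retrotransposons without a protein of their own. Their left end derives from a tRNA and carries the internal promoter of RNA polymerase III, and their right end resembles the tail of the LINE L2, whose enzymes are thought to have copied them. They stopped moving long ago, so most copies are truncated and have diverged from one another, unlike the younger and more alike copies of Alu, the primate-specific SINE. Many MIR copies lie within the introns and untranslated regions of genes and are transcribed as passengers of longer RNAs. Neighbouring inverted Alu copies are known to form long, imperfect RNA duplexes, and decitabine is known to release double-stranded RNA from silenced repeats. The files hold no sequence and no genome position for any element, so no MIR sequence is shown and no copy was placed in a gene.

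The 5 subfamilies were MIRb with 228856 copies, MIR with 177613, MIRc with 103104, MIR3 with 89786 and MIR1_Amn with 12053. MIR, MIRb and MIRc are the common mammalian forms, MIR3 is a more diverged relative, and MIR1_Amn is an older form that is shared with other amniotes. Reads were recovered from each column as described in the processing section, and each library is set against its own total of reads on repeats. With 1 J2 library for each condition, conditions could not be tested against each other, and no difference below has a replicate check. Where 3 values follow each other, they stand in the order siLuc DMSO, siLuc DAC, siStau1 DAC. The totals were 71473124, 68944777 and 83037330 reads. Intervals cover counting error only. Among MIR copies of siLuc DMSO, 44043 had 2, 4 or 6 reads and 23661 had 1, 3 or 5, and should the authors have counted each mate of a pair, which the sources used here do not state, the intervals are too narrow.

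MIR RNA held a larger share of the J2 repeat reads in both decitabine libraries than in the control. In the control, MIR elements had 2632960 reads, which is 3.68% of the reads on repeats (Wilson 95% interval 3.68% to 3.69%). They had 3397536 reads, 4.93%, with decitabine in siLuc cells (4.92% to 4.93%) and 3991715 reads, 4.81%, in siStau1 DAC (4.80% to 4.81%). As shares of all reads on repeats, the 2 decitabine libraries thus lay close together and above the control. Other totals, given below, change this. By comparison with their number, MIR elements were thinly represented: they are 10.9% of repeat elements, while Alu elements are 22.0% of elements and held 57.5%, 46.8% and 54.0% of the reads in the same order of libraries. The mean was 4.31 reads per MIR copy in siLuc DMSO, against 33.2 per Alu copy, 2.93 per L2 copy and 2.95 per copy of hAT-Charlie, a family of old DNA transposons. MIR copies were therefore read at a level much nearer to the other old repeats than to Alu. The unit of these means is reads per annotated copy, without correction for the length of the copies, which the files do not give.

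The subfamilies took different shares in every library, and their order by reads was not their order by reads per copy. MIRb held most MIR reads, with 1.34%, 1.81% and 1.77% of all repeat reads. MIR held 0.785%, 1.15% and 1.07%, MIRc 0.659%, 0.860% and 0.843%, and MIR3 0.736%, 0.913% and 0.933%. MIR1_Amn held 0.163%, 0.196% and 0.188%. For each subfamily both decitabine libraries were above siLuc DMSO on this scale, 1 library against another. Over reads outside Alu, the share in siLuc DAC was below that in siLuc DMSO for MIR3 (1.716% against 1.731%) and MIR1_Amn (0.368% against 0.384%). Of the 5, only MIR3 had a larger share of all repeat reads in siStau1 DAC than in siLuc DAC. Over reads outside Alu, all 5 had a larger share in siStau1 DAC than in siLuc DAC.

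Per copy the order was another one, the same in all 3 libraries, from MIR at the bottom through MIRb, MIRc and MIR3 to MIR1_Amn at the top. In siLuc DMSO the means were 3.16 reads per copy for MIR, 4.19 for MIRb, 4.57 for MIRc, 5.86 for MIR3 and 9.69 for MIR1_Amn. In siLuc DAC they were 4.46, 5.46, 5.75, 7.01 and 11.2, and in siStau1 DAC 5.00, 6.43, 6.79, 8.63 and 13.0. These means are not scaled to library depth, so they compare subfamilies within a library and not libraries with each other. The rare MIR1_Amn copies thus carried over 2 times the reads of a MIR copy in each library. A few copies contribute much of that: the 10 highest MIR1_Amn copies of each library held 24.9%, 27.5% and 25.5% of the subfamily's reads, against 3.38%, 3.11% and 2.92% for MIR. Detection shows the same order of these 2 subfamilies without that weight, since 27.8% of MIR1_Amn copies and 17.5% of MIR copies had a read in siLuc DMSO.

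**Figure D1:**
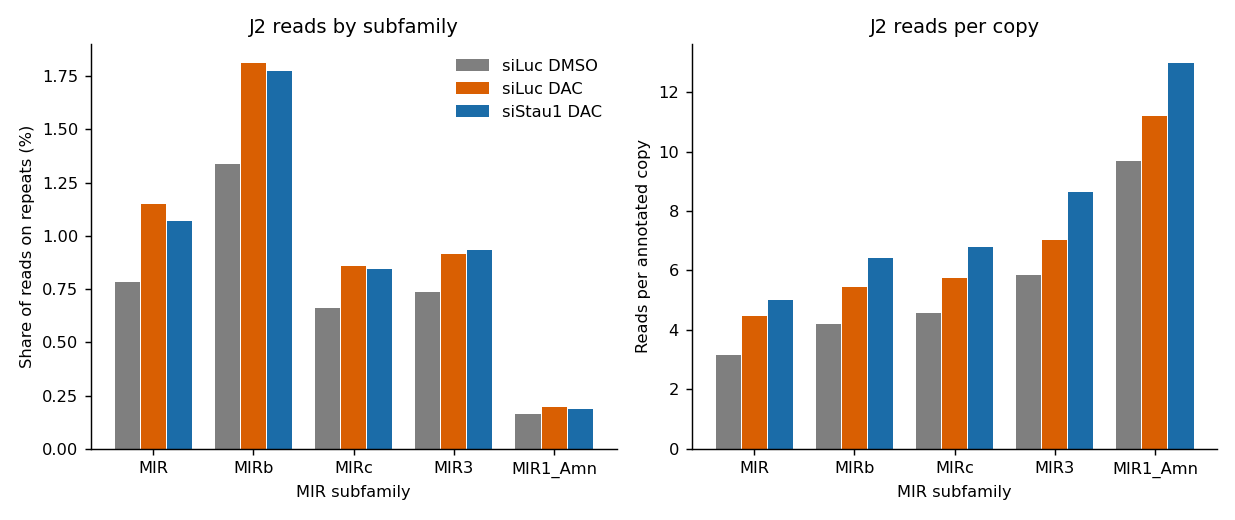
Share of all reads on repeats (left, in percent) and mean reads per annotated copy (right) for the 5 MIR subfamilies in the 3 J2 libraries, 1 library per condition and hence no error bars. MIRb has the tallest bars on the left, up to 1.81%, while MIR1_Amn, lowest on the left, has the tallest on the right, from 9.69 to 13.0 reads per copy. Reads per copy are not scaled to library depth.

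Most MIR copies had no J2 read at all. Of the 611412 copies, 409576 (67.0%) had no read in any library, and 85926 (14.1%) had a read in all 3. Copies with a read numbered 122294, 149322 and 149057, the last 2 each 24.4% of all. So siLuc DAC, the library with the fewest reads on repeats, had a read on more MIR copies than either of the others, by a small margin over siStau1 DAC. Brought by calculation to the depth of siLuc DAC, the numbers would be 121799 in siLuc DMSO and 145928 in siStau1 DAC. Alu elements did the reverse: 52.7% of copies had a read in siLuc DMSO and 44.7% in siLuc DAC. Without correction for depth, 23.6%, 24.8% and 25.996% of all repeat elements had a read, beside 20.002%, 24.4% and 24.4% of MIR copies. L2 (17.95%, 22.9% and 22.2%) and hAT-Charlie (17.4%, 22.8% and 21.6%) were lower than MIR. That most copies had no read in a given library was thus not particular to MIR. A read in 1 library only was seen for 30228 MIR copies in siLuc DAC, 24970 in siStau1 DAC and 13727 in siLuc DMSO. A further 24344 had reads in both decitabine libraries and none in siLuc DMSO. Counts that combine libraries, such as a read in none, in 1 only or in all 3, were not made over all repeat elements. Whether those counts are particular to MIR cannot be told.

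Reads were concentrated on few copies, somewhat less so with decitabine. The 6114 highest copies, 1 in 100, held 49.5%, 44.9% and 47.1% of MIR reads. Over all repeats the highest 1 in 100 held more, at 64.0%, 63.2% and 62.1%. In L2 they held 50.2%, 43.7% and 46.9%, and in hAT-Charlie 53.0%, 45.6% and 50.2%, so the lower values with decitabine were shared with these families. Copies with at least 20 reads numbered 26939, 35344 and 38208, without correction for depth, which was greatest in siStau1 DAC. They were 4.41%, 5.78% and 6.25% of MIR copies, beside 7.04%, 7.30% and 8.12% of all repeat elements. In every library 21200 MIR copies reached 20 reads. Those 21200 copies held 73.4% of the MIR reads of siLuc DMSO. Across all MIR copies Spearman's rho between the reads of siLuc DMSO and siLuc DAC was 0.683, between siLuc DMSO and siStau1 DAC 0.734 and between the 2 decitabine libraries 0.725. These describe copies, which are not independent replicates.

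The comparison of decitabine with its solvent in control cells is siLuc DAC over siLuc DMSO. Summed over the family, the MIR share was 1.34 times as large with decitabine, a log2 ratio of 0.42 (counting interval 0.42 to 0.42). Copy by copy, 51131 MIR elements reached 20 reads over both libraries, 8.36% of all copies. Their median log2 ratio was 0.46, with quartiles at −0.26 and 1.35, beside a median of 0.013 over all 604858 repeat elements with that many reads. At least 2-fold higher were 33.3% of these MIR elements, against a background of 21.3% of all repeat elements, and at least 2-fold lower were 9.46%, against 17.0%. That background is mostly Alu: 343190 of its 604858 elements, of which 7.29% were at least 2-fold higher and 22.5% at least 2-fold lower. L2 had 42.4% higher and 6.69% lower, and hAT-Charlie 43.0% and 6.78%. The MIR share at least 2-fold higher was thus above that of Alu and below those of L2 and hAT-Charlie. Of the MIR elements 66.6% had a ratio above 0, so many single copies went against the median.

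The 5 subfamilies were ordered alike by sums and by medians at the minimum of 20 reads. MIR was highest, with a log2 ratio of its summed reads of 0.55 and a median of 0.60 over 12418 elements. MIRb had 0.43 and 0.47, MIRc 0.38 and 0.43, and MIR3 0.31 and 0.35. MIR1_Amn was lowest, at 0.26 and 0.19 over 1579 elements. The subfamily with the most reads per copy was therefore the one whose share differed least, and MIR lay 0.29 above MIR1_Amn in sums and 0.41 in medians. At a minimum of 100 reads the medians were 0.37 in MIR, 0.270 in MIRb, 0.276 in MIRc, 0.19 in MIR3 and 0.16 in MIR1_Amn, so MIRb and MIRc exchanged places. A scaling of the libraries adds 1 amount to all groups and so cannot alter these gaps. Elements at least 2-fold higher made up 37.3% of MIR, 33.9% of MIRb, 32.4% of MIRc, 29.3% of MIR3 and 22.4% of MIR1_Amn. The last is near the background of all repeats, which is mostly Alu, and all 5 were below L2 (42.4%) and hAT-Charlie (43.0%).

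Against other families, MIR lay between Alu and the older repeats. Alu had a log2 ratio of summed reads of −0.30 and a median of −0.32, so MIR stood 0.72 above Alu in sums and 0.78 in medians. L2, the LINE whose tail MIR resembles, had 0.65 and 0.75, and hAT-Charlie 0.64 and 0.77. MIR thus lay below both by sums (−0.23 and −0.22) and by medians (−0.30 and −0.31). The MIR subfamily alone came nearest to L2, with a difference of −0.10 in sums and −0.16 in medians.

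**Figure D2:**
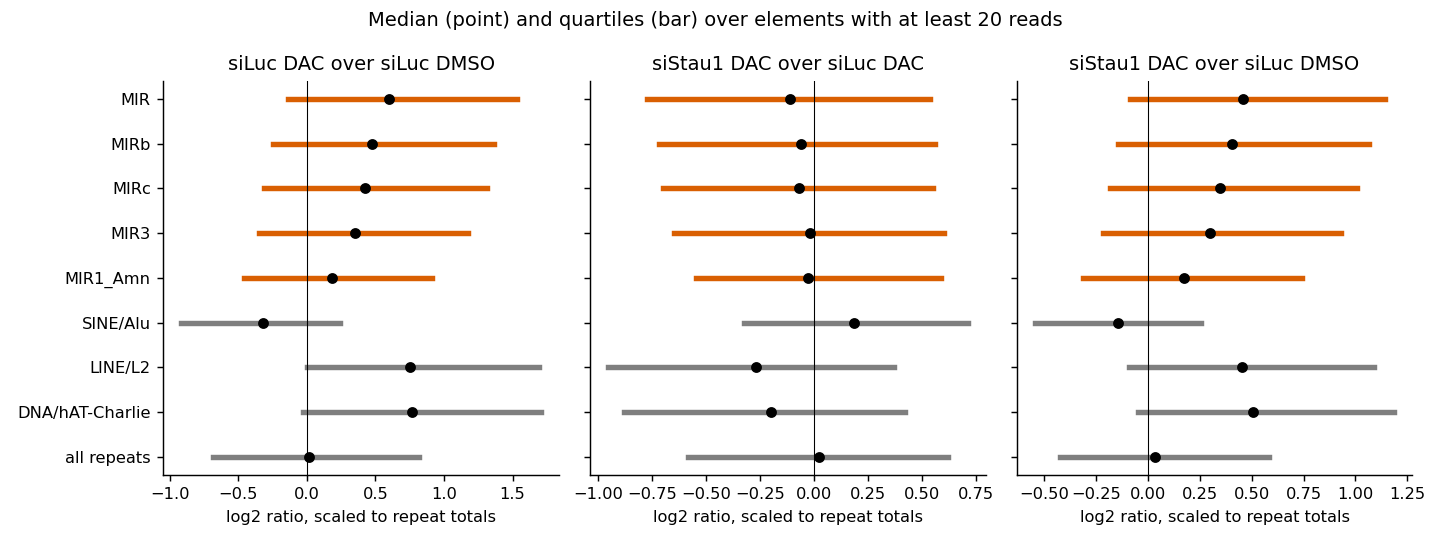
Median (point) and lower and upper quartiles (bar) of the log2 ratio over elements that reached 20 reads in both libraries combined, for the 5 MIR subfamilies (orange), 3 comparison families and all repeats (grey), scaled to each library's reads on repeats. In siLuc DAC over siLuc DMSO the medians step down from 0.60 in MIR to 0.19 in MIR1_Amn, with Alu at −0.32 and L2 at 0.75.

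Whether the MIR share is called higher depends on what it is a share of. Alu held more reads than any other family named here, and its share was lower in siLuc DAC, which by itself makes every other share larger. Over reads outside Alu the MIR share was 8.66%, 9.26% and 10.4%, a log2 ratio of 0.097 for decitabine in siLuc. With the abundant structured classes RNA, srpRNA, snRNA and rRNA left out as well, the MIR share was 17.1%, 16.6% and 17.5%, and the ratio turned to −0.050. The authors' own scaling gave 1.31. Differences between groups, such as that of MIR from Alu, do not depend on the scaling by construction.

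**Figure D3:**
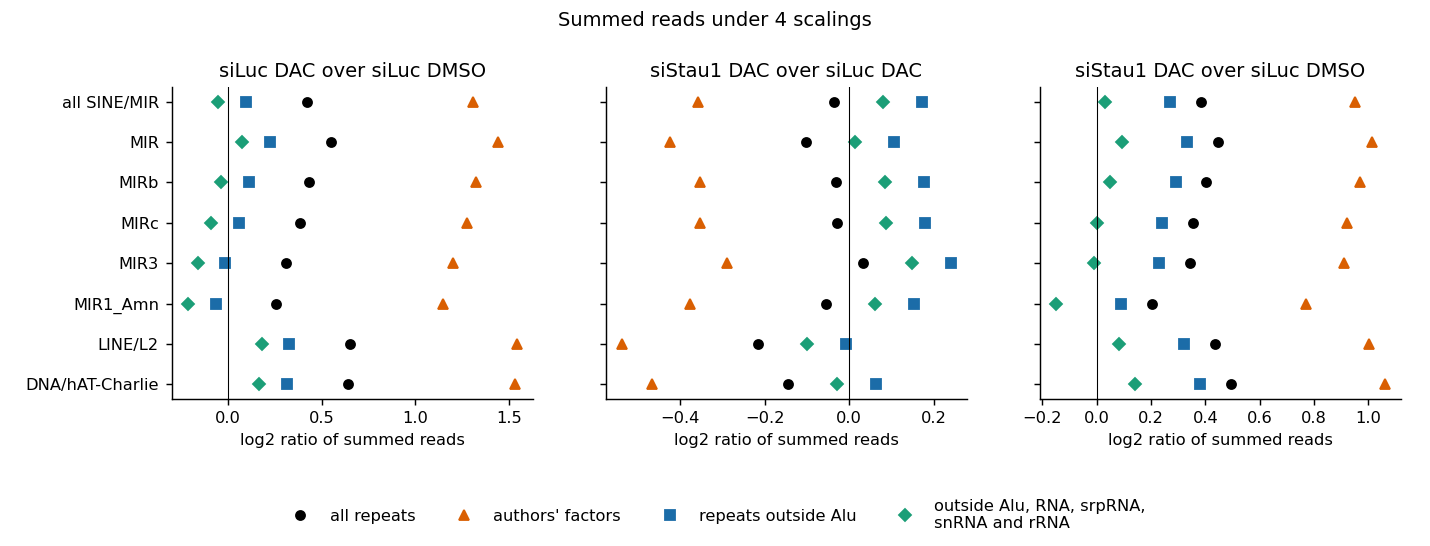
Log2 ratio of summed reads for the MIR family, its 5 subfamilies, L2 and hAT-Charlie in the 3 comparisons, under 4 scalings shown by marker (1 library per condition, no error bars). Changing the scaling moves all points of a panel together: in siLuc DAC over siLuc DMSO the family runs from −0.050 to 1.31, while MIR stays to the right of MIR1_Amn.

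The log2 ratio was larger in copies with few reads in siStau1 DAC than in copies with many. Copies were binned by their reads in siStau1 DAC, the library outside this ratio. Over all MIR copies its reads were correlated with those of siLuc DMSO (rho 0.734) and of siLuc DAC (0.725). The bins are thus not independent of the ratio, and how much of the trend comes from the binning was not tested. The 462355 MIR copies without a read in siStau1 DAC had 59920 reads in the control and 145704 with decitabine, a log2 ratio of 1.33. Copies with 1 to 9 reads had a log2 ratio of 0.94, those with 10 to 49 reads 0.52 and those with 50 to under 200 reads 0.29. The 2652 copies with 200 to under 1000 reads had 0.26, and the 202 copies with 1000 or more had 0.24. The ratio thus levelled off among copies well read in siStau1 DAC. It was largest where reads in siStau1 DAC were sparse, although those sparse copies hold few of the reads. Between its lowest and highest bins the ratio went from 1.49 to 0.21 in MIR, and MIR1_Amn went from 0.79 at 0 reads to 0.18 at 200 to under 1000 reads and 0.38 in its highest bin. L2 declined likewise, from 1.41 to 0.37, and Alu ran from −0.76 to −0.22.

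The first number in an element's name also sorted the ratios. Its meaning is not stated in the sources used here. It runs from 180 to 1428 over MIR elements, with medians of 443 in MIR, 360 in MIRb, 282 in MIRc, 270 in MIR3 and 222 in MIR1_Amn. Repeat annotations commonly give each copy an alignment score that grows with its length and its likeness to the consensus, and whether this number is such a score is not known. From the lowest bin (180 to under 230) to the highest (550 and above), the median log2 ratio of siLuc DAC over siLuc DMSO went through 0.30, 0.33, 0.43 and 0.57 to 0.75 over the family. Within MIR it went from 0.33 to 0.81, within MIRb from 0.28 to 0.65, within MIRc from 0.34 to 0.85 and within MIR3 from 0.30 to 0.46. The log2 ratio of summed reads climbed likewise in MIR (0.33 to 0.72), MIRb (0.35 to 0.56) and MIRc (0.30 to 0.69) between these bins but not in MIR3, where it was 0.32 in the lowest and 0.23 in the highest. MIR1_Amn showed no such climb, with 0.19, 0.18, 0.25 and 0.05 over the bins with at least 20 elements, the last of them holding 32. In the lowest bin MIR, MIRb, MIRc and MIR3 lay between 0.28 and 0.34, so these 4 subfamilies hardly differed among copies with low numbers. In the highest bin they differed, but in another order than over all elements. MIRc was highest there at 0.85, then MIR at 0.81, MIRb at 0.65 and MIR3 at 0.46. The share of copies with a read in siLuc DMSO was also higher in the highest bin than in the lowest: 19.3% against 14.6% in MIR, 22.7% against 17.6% in MIRb, 22.75% against 18.6% in MIRc and 28.7% against 22.7% in MIR3. Over the family, whose mix of subfamilies differs between bins, it was 20.78% against 19.02%.

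**Figure D4:**
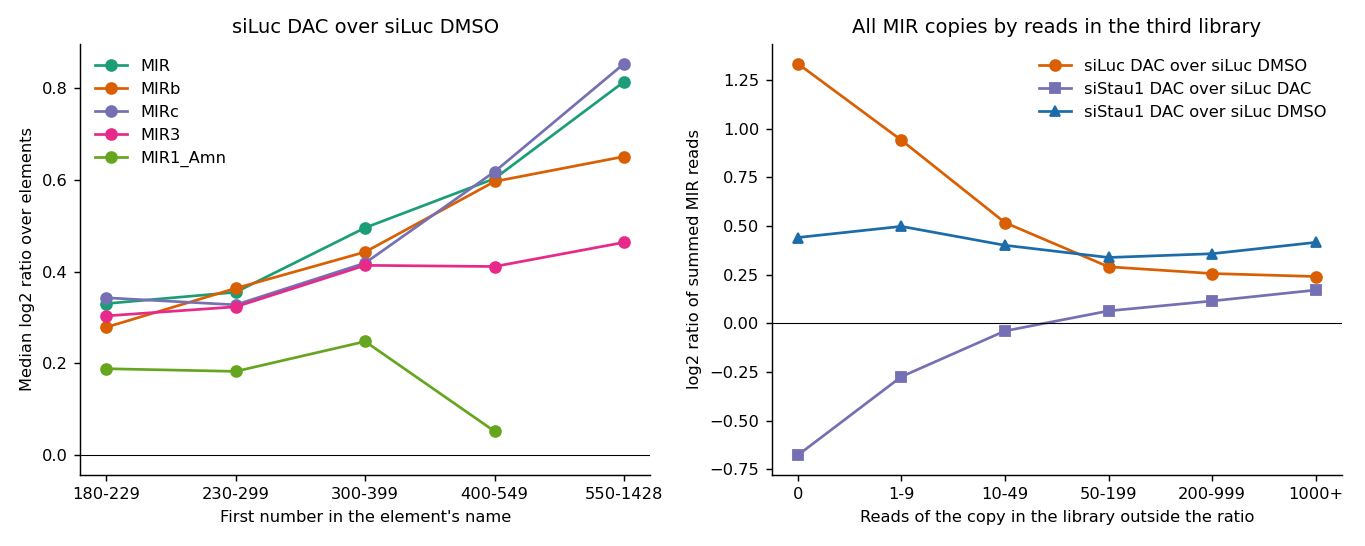
Left: median log2 ratio of siLuc DAC over siLuc DMSO by the first number in the element's name, for each subfamily, drawn where a bin has at least 20 elements. Right: log2 ratio of summed MIR reads in the 3 comparisons, with copies binned by their reads in the library that the ratio does not use. The left lines end higher than they start in 4 subfamilies, at 0.85 in MIRc, and on the right siLuc DAC over siLuc DMSO declines from 1.33 to 0.24 while siStau1 DAC over siLuc DMSO stays between 0.34 and 0.50.

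Setting siStau1 DAC against siLuc DAC asks what the knockdown does under decitabine. For MIR RNA the 2 libraries hardly differed. The log2 ratio of summed reads was −0.036 (counting interval −0.038 to −0.034), and the median over 59148 elements was −0.066, with quartiles at −0.71 and 0.56, beside 0.025 over all repeats. At least 2-fold higher were 14.1% of MIR elements, with a background of 15.5%, and at least 2-fold lower 17.6%, with a background of 14.8%. These shares are near those of all repeats, of which 343097 of 644672 elements were Alu, with 17.1% higher and 7.95% lower. L2 had 11.1% higher and 23.9% lower, and hAT-Charlie 11.55% and 22.2%. The sums were −0.10 in MIR, −0.031 in MIRb, −0.030 in MIRc, 0.032 in MIR3 and −0.055 in MIR1_Amn. Their direction was not stable: over reads outside Alu all 5 were above 0, and under the authors' factors all 5 were below.

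Relative to its neighbours among the families, MIR again stood between Alu and the old repeats, now in the mirrored order. Alu was at 0.21 in sums, L2 at −0.22 and hAT-Charlie at −0.15, so MIR lay −0.24 from Alu, 0.18 above L2 and 0.11 above hAT-Charlie. Binned by reads in siLuc DMSO, MIR copies without a read there had a log2 ratio of −0.68, with 251182 reads in siLuc DAC and 189193 in siStau1 DAC. Those with 1 to 9 reads had −0.27, those with 50 to under 200 reads 0.064 and the 108 copies with 1000 or more 0.17. Copies sparse in siLuc DMSO were thus lower in siStau1 DAC and copies well read in siLuc DMSO slightly higher. The sum over all copies near 0 combines both. These bins are not independent of the ratio either. Both this ratio and the previous one use the siLuc DAC library, once below and once above the line.

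The comparison that does not use siLuc DAC is siStau1 DAC over siLuc DMSO, in which siRNA and drug both differ. The MIR share was 1.305 times as large in siStau1 DAC, a log2 ratio of 0.38 (counting interval 0.38 to 0.39). The median over 52043 elements was 0.38, with quartiles at −0.15 and 1.04, beside 0.035 over all repeats. At least 2-fold higher were 26.3% of MIR elements, against a background of 14.5%, and at least 2-fold lower 4.93%, against 8.27%. Of the 622296 elements in that background 365216 were Alu, with 5.81% higher and 10.4% lower. L2 had 27.9% higher and 4.51% lower, and hAT-Charlie 30.6% and 4.17%, so MIR was near these 2 families. The order of subfamilies by sums was the same as in siLuc DAC over siLuc DMSO, with which it shares the control: 0.45 in MIR, 0.40 in MIRb, 0.35 in MIRc, 0.34 in MIR3 and 0.20 in MIR1_Amn. Here MIR elements differed little from L2 (0.44) and hAT-Charlie (0.49), and stood 0.47 above Alu (−0.090). Over reads outside Alu and the structured classes the sums were 0.031 over the family, −0.011 in MIR3 and −0.15 in MIR1_Amn, so the direction of these 2 subfamilies turned.

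Binned by reads in siLuc DAC, the ratio of summed reads over the family was 0.44 in copies without a read, 0.50 with 1 to 9 reads, 0.40 with 10 to 49, 0.34 with 50 to under 200, 0.36 with 200 to under 1000 and 0.42 with 1000 or more. These family sums span a narrower range than those of siLuc DAC over siLuc DMSO. Within subfamilies the ends differed: MIR went from 0.53 without a read to 0.27 in its 14 copies with 1000 or more, and MIR3 from 0.36 to 0.59 in its 33. The median over elements was 0.52 at a minimum of 6 reads and 0.27 at 100. The climb with the number in the name remained, from a median of 0.24 in the lowest bin to 0.62 in the highest.

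MIR reads followed those of whatever repeat was listed next to them. The tables give no positions, and what the row order stands for is not stated. Over all MIR rows, Spearman's rho between the reads of a MIR row and the summed reads of the rows before and after it was 0.705. With the row 10 before it rho was 0.540, with the row 100 before 0.410, with the row 1000 before 0.172 and with the row 10000 before 0.038. MIR copies without reads in any library had neighbours without reads in 71.9% of cases, while copies with 100 to under 1000 reads over the 3 libraries had a median of 292 reads on their 2 neighbours together. Of the 931 MIR copies with at least 1000 reads, 65.95% had more reads than either neighbour, and none had 2 neighbours without reads. Among the 133291 copies with 1 to 19 reads, 14.97% had 2 neighbours without reads.

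The ratios followed the neighbours too. For siLuc DAC over siLuc DMSO, rho between the log2 ratio of a MIR row and that of the row before it, where that row was not MIR and both had at least 20 reads, was 0.378 over 24287 pairs. It was 0.406 over 28527 pairs for siStau1 DAC over siLuc DAC and 0.144 over 24175 pairs for siStau1 DAC over siLuc DMSO. With the row 10000 before, these were 0.021, −0.012 and 0.026. The 2 ratios that use siLuc DAC were thus shared between adjacent repeats of different families more than the ratio that does not.

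MIR rows listed beside Alu rows had more reads and a larger decitabine ratio. The 426798 MIR copies with no Alu row directly before or after had 3.58 reads per copy in siLuc DMSO, the 157871 with 1 had 5.26 and the 26743 with 2 had 10.3. In siLuc DAC the means were 4.41, 7.08 and 14.8, and in siStau1 DAC 5.31, 8.06 and 16.9, none of them scaled to library depth. The median log2 ratio of siLuc DAC over siLuc DMSO was 0.38, 0.54 and 0.71 in the same order, although Alu itself had a median of −0.32. For siStau1 DAC over siLuc DMSO the medians were 0.34, 0.42 and 0.54, and for siStau1 DAC over siLuc DAC −0.032, −0.10 and −0.14.

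Single copies with the most reads over the 3 libraries are named by subfamily and the numbers of the file. MIRc_243_161 had 18415, 19134 and 23099 reads, or 258, 278 and 278 reads per 1000000 on repeats. MIR1_Amn_274_31 had 13970, 12857 and 17324 reads, or 195, 186 and 209 per 1000000. Both were nearly level across the 3 libraries on this scale, and both far exceeded the rows beside them, whose reads over the 3 libraries were 17 and 617 for the first and 106 and 323 for the second. MIR1_Amn_274_31 alone held 11.96% of its subfamily's reads in siLuc DMSO.

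The third and the fourth, MIRc_247_252 and MIR1_Amn_242_36, are adjacent rows. MIRc_247_252 had 6455, 12533 and 8867 reads and MIR1_Amn_242_36 had 4855, 11104 and 7379. Decitabine in siLuc cells had both higher than the control, with log2 ratios of 1.01 and 1.25, and nearer to the control in siStau1 DAC, at 0.24 and 0.39. The fifth, MIRb_332_336, had 4895, 7891 and 9338 reads and was higher in both decitabine libraries, at 0.74 and 0.72. The 5 copies with the most reads therefore followed no common pattern.

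The lowest copies in siLuc DAC over siLuc DMSO, among those that reached 100 reads, had no read in siLuc DAC. MIRb_405_166 had 1531, 0 and 1539 reads. MIRb_294_162 had 917, 0 and 1093 reads, and MIRc_567_28 had 600, 0 and 1022. Against a floor of 3 reads per library, the log2 ratios of siLuc DAC over siLuc DMSO were at most −8.94, −8.20 and −7.59, and the same 3 copies were highest in siStau1 DAC over siLuc DAC, at no less than 8.73, 8.24 and 8.14. Over siLuc DMSO, siStau1 DAC had them at −0.21, 0.037 and 0.55.

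These 3 copies lie within 8 rows of each other, and the rows around them were empty in siLuc DAC too. In the 28 rows from 10 before to 10 after them, 13 rows had at least 20 reads in both other libraries. Of these 13, which include L2 and Alu rows, 12 had 0 reads in siLuc DAC, and the last, an L2 row, had 4. The 28 rows together had 7669, 4 and 8877 reads. Rows of other families in the stretch thus lacked reads as its MIR copies did.

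**Figure D5:**
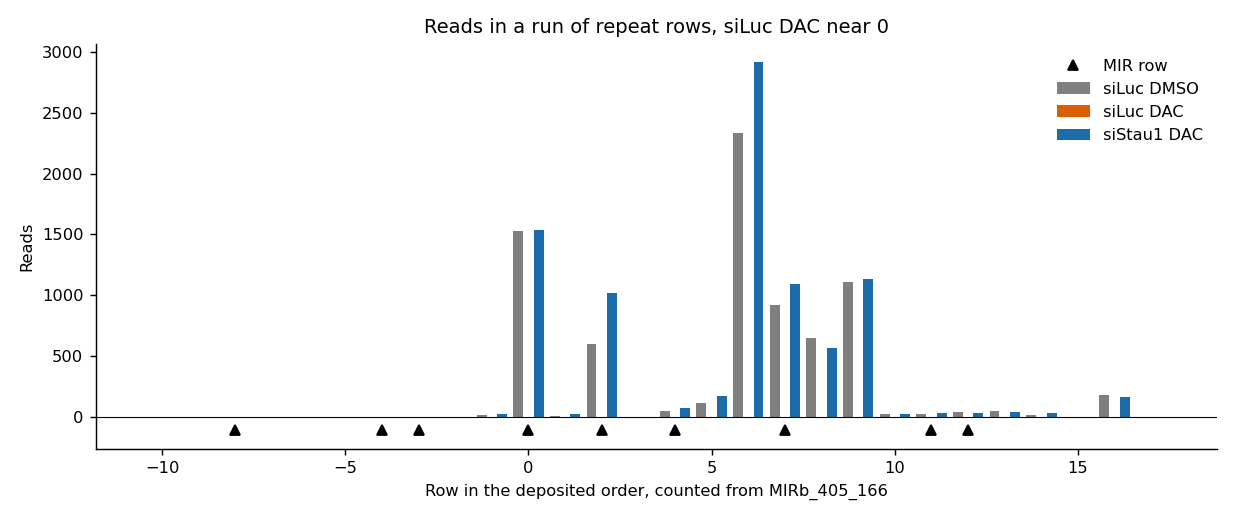
Reads (vertical axis) of 28 consecutive rows of the deposited repeat tables in the 3 J2 libraries, counted from MIRb_405_166 at 0, with MIR rows marked by triangles. Bars of siLuc DMSO and siStau1 DAC reach 2329 and 2913 reads in an L2 row, while siLuc DAC has 4 reads in all.

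Such gaps were most frequent in siLuc DAC. Of 24620 MIR elements with at least 20 reads in both siLuc DMSO and siStau1 DAC, 334 (1.357%) had 0 in siLuc DAC, against a background of 2.15% of all repeat elements. The share was 1.385% in L2, 1.576% in hAT-Charlie and 1.756% in Alu. Of 28094 MIR elements with at least 20 reads in both decitabine libraries, 120 (0.427%) had 0 in siLuc DMSO, against a background of 0.202%. L2 (0.576%) and hAT-Charlie (0.643%) were above MIR here, and Alu was at 0.0119%. Of 22028 MIR elements with at least 20 reads in both siLuc libraries, 0 had 0 in siStau1 DAC, against a background of 0.00420%. The gaps in siLuc DAC came in runs: 271 of the 334 MIR elements (81.1%) had another row with such a gap within 10 rows, compared with 304 (1.25%) of the 24286 MIR elements that kept reads. In siLuc DMSO this was so for 4 of the 120.

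The highest copies in siLuc DAC over siLuc DMSO had few or no reads in the control. MIR3_392_47 had 0, 190 and 183 reads, which puts it at least 6.04 higher on the log2 scale in siLuc DAC and at least 5.71 higher in siStau1 DAC. MIR3_240_132 had 0, 100 and 20 reads, at least 5.11 higher in siLuc DAC. MIRb_364_477 had 2, 127 and 6 reads. MIR3_392_47 thus appeared in both decitabine libraries, whereas MIRb_364_477 had nearly all its reads in siLuc DAC.

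Copies with reads mainly in siLuc DAC were also the lowest in siStau1 DAC over siLuc DAC. MIR_660_47 had 2, 114 and 4 reads, at a log2 ratio of −4.94, and MIRb_513_83 had 14, 140 and 6 reads, at −4.70. MIRb_364_477 was the third, at −4.56. The rows beside them also had more reads in siLuc DAC: those of MIR_660_47 had 54 and 56 reads in siLuc DAC and at most 11 in either other library.

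In siStau1 DAC over siLuc DMSO the extremes were milder at the low end. The lowest were MIRc_231_191 with 89 and 29 reads (log2 ratio −1.82), MIR1_Amn_239_39 with 118 and 39 (−1.80) and MIR3_281_135 with 73 and 29 (−1.53). The highest after MIR3_392_47 were MIRb_704_10 with 2 and 110 reads and MIR3_281_327 with 7 and 157 (4.18). For siLuc DAC the reads of these 5 copies were 45, 46, 26, 37 and 106. On each of them siLuc DAC differed from siLuc DMSO in the same direction as siStau1 DAC did. Both ratios use the same siLuc DMSO reads, and the copies were chosen by one of them. The shared direction is therefore partly built into the choice and is no separate check.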

How the data were processed

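J2-bound RNA was measured in 3 libraries, 1 per condition. The 3 tables deposited by the authors each pair 2 libraries over 5622516 repeat elements, and a library has identical values in both of its tables. Per the file headers each column is 1 library. In the deposited siLuc DMSO column every count has 1 added. The deposited signal of siLuc DAC and siStau1 DAC is the count plus 1 times a factor of 1.92 and 1.27, whose origin is not given in the sources used here. Each column was divided by its smallest value and 1 was subtracted, which gave whole reads (tolerance 0.001) for 100.0% of values. The submitters' processing notes name HISAT2 2.1.0, featureCounts and DESeq 1.36.0 and the build hg38, without their roles. How reads that match several copies were counted is not given, so reads of similar copies may be shared or misplaced. No count test was fitted, because each condition has 1 library.

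Members and lists were chosen with earlier results of these data known. Log2 ratios use reads scaled to the library's reads on repeats, with 0.5 reads added for single elements, for elements that reach 20 reads over both libraries. Named copies are the 5 with the most reads and, per comparison, the 3 highest and 3 lowest that reach 100 reads. Shares have Wilson 95% intervals, and ratios of summed reads have exact binomial ones. The floor for a count of 0 is 3 reads. Depth was brought to that of the smallest library by the expected number of copies that would keep a read. Python 3.11.15, pandas 2.3.3 and scipy 1.17.1 were used, and the steps were tested on simulated data. The alternatives were the authors' factors, scaling to reads outside Alu, other read minimums (6 and 100), 1 read added, and leaving out the 10 highest copies or the elements with a gap in 1 library. Scaling outside Alu and the structured RNA classes, and both shares over those totals, were added after seeing the data. Total RNA was not analysed here.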

Additional observations from a re-analysis of the deposited data

How the results depend on the processing

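The choice of total turned the direction of the family's ratio in siStau1 DAC over siLuc DAC. In siLuc DAC over siLuc DMSO it did so only with Alu and the structured classes left out. The ratio of siStau1 DAC over siLuc DMSO kept its direction under every total but changed in size. For siLuc DAC over siLuc DMSO the log2 ratio of summed MIR reads was 1.31 with the authors' factors, 0.097 over reads outside Alu and −0.050 over reads outside Alu and the structured classes, and the median over elements was 1.35, 0.13 and −0.013. For siStau1 DAC over siLuc DAC the sums were −0.36, 0.17 and 0.081 and the medians −0.39, 0.14 and 0.051. For siStau1 DAC over siLuc DMSO the sums were 0.95, 0.27 and 0.031 and the medians 0.95, 0.27 and 0.027. The shares were 8.66%, 9.26% and 10.4% outside Alu, and 17.1%, 16.6% and 17.5% with the structured classes also left out. These follow from the change of total, which moves every element of a comparison by 1 amount.

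Subfamilies turned in direction as follows. In siLuc DAC over siLuc DMSO, outside Alu, the sums were −0.012 in MIR3 and −0.063 in MIR1_Amn, whose median was −0.14. With the structured classes also left out, the sums were −0.036 in MIRb, −0.086 in MIRc, −0.16 in MIR3 and −0.21 in MIR1_Amn, and the medians −0.045 in MIRc, −0.12 in MIR3 and −0.28 in MIR1_Amn. In siStau1 DAC over siLuc DAC, outside Alu, the sums were 0.11 in MIR, 0.18 in MIRb, 0.18 in MIRc and 0.15 in MIR1_Amn, and the medians 0.099 in MIR, 0.15 in MIRb, 0.14 in MIRc, 0.19 in MIR3 and 0.18 in MIR1_Amn. With the structured classes also left out, these sums were 0.015, 0.086, 0.087 and 0.062 and these medians 0.0070, 0.059, 0.048, 0.098 and 0.089. The authors' factors gave a sum of −0.29 in MIR3. In siStau1 DAC over siLuc DMSO, with both left out, the sums were −0.011 in MIR3 and −0.15 in MIR1_Amn, and the medians −0.0079 in MIRc, −0.052 in MIR3 and −0.18 in MIR1_Amn.

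Among single copies, siLuc DAC over siLuc DMSO became 0.82 for MIR1_Amn_274_31 with the authors' factors, and for MIRc_243_161 −0.22 outside Alu and −0.36 with the structured classes also left out. For siStau1 DAC over siLuc DAC the authors' factors gave −0.32 for MIRc_243_161 and −0.16 for MIR1_Amn_274_31, and MIRb_332_336 was at 0.18 outside Alu and 0.091 with both left out. For siStau1 DAC over siLuc DMSO, MIRc_243_161 was at −0.0028 and MIR1_Amn_274_31 at −0.019 outside Alu. With both left out they were at −0.24 and −0.26, and MIRc_247_252 at −0.11.

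The read minimum moved the medians, and the cause was not tested. At 6 reads they were 0.70, −0.15 and 0.52 for siLuc DAC over siLuc DMSO, siStau1 DAC over siLuc DAC and siStau1 DAC over siLuc DMSO, and at 100 reads 0.27, 0.0073 and 0.27. For siLuc DAC over siLuc DMSO the medians of MIRb (0.270) and MIRc (0.276) exchanged places at 100 reads. At 100 reads siStau1 DAC over siLuc DAC also turned in MIRb (0.012), MIRc (0.024) and MIR3 (0.052). Without the elements that have a gap in 1 library, the sums were 0.43 for siLuc DAC over siLuc DMSO and −0.043 for siStau1 DAC over siLuc DAC. With 1 read added, the median of siStau1 DAC over siLuc DMSO was 0.37. No paired analysis was possible because each condition has 1 J2 library, and for the same reason no replicate could be left out.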
